A study of Mus musculus with 6 samples.

Results

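The genes described here are 10 members of the epidermal growth factor (EGF) and fibroblast growth factor (FGF) receptor systems, chosen by gene name from the 55802 genes measured: the ERBB receptor genes Egfr, Erbb2, Erbb3 and Erbb4, the FGF receptor genes Fgfr1, Fgfr2 and Fgfr3, the inhibitor genes Lrig1 and Errfi1, and the ligand gene Hbegf. All 10 were found, each as 1 entry, and 9 reached the expression minimum used for testing, a mean of 1 FPKM over the 6 libraries. The exception was Erbb3. FPKM is the number of reads divided by gene length and by a library size, on a common scale. The library sizes used by the authors differed from the total reads (see the processing section). RNA came from primary neural stem cells of the subventricular zone (SVZ), the neurogenic wall of the lateral ventricle, of adult wild-type C57BL/6 mice, grown in Neurobasal-type medium with 2% B27. Cells of both groups were infected with adenovirus, and the labels give 24 h. The control virus carried green fluorescent protein alone (ADV-GFP, control, n = 3), and the other virus carried SETD4, a SET domain methyltransferase, with the fluorescent protein (ADV-SETD4-GFP, SETD4 OE, n = 3). The labels do not name a promoter for the virus, growth factors in the medium or the animals behind each replicate, so p-values measure the spread between these libraries, which may be technical.

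ERBB and FGF receptors are receptor tyrosine kinases that pair on ligand binding and signal through Ras and the kinase ERK. EGF and FGF2 are the usual mitogens of SVZ stem cells in culture, and EGFR is widely used as a mark of activated stem cells and their dividing progeny. ERBB2 has no known soluble ligand of its own, ERBB3 has little kinase activity, and ERBB4 binds neuregulins and HB-EGF, the product of Hbegf. LRIG1 is a membrane protein that lowers ERBB receptor levels, ERRFI1 (also called MIG6) binds and blocks the EGFR kinase domain, and ERK signalling in turn induces feedback inhibitors such as the Sprouty proteins.

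Of the 9 tested members 5 were higher in SETD4 OE (Egfr, Erbb4, Fgfr1, Fgfr2, Fgfr3), 3 were lower (Hbegf, Lrig1, Errfi1) and Erbb2 was not called (limma, Benjamini-Hochberg adjusted p under 0.05 over 12994 tested genes). Among all tested genes 60.0% were called, 26.0% higher and 33.9% lower. Of these calls 43.4% were higher, and 57.5% with upper-quartile scaling, which moves the median of all genes up by 0.12 on the log2 scale. The median log2 fold change was 0.16 over the 9 members and -0.06 over all tested genes. The 3 SETD4 OE values lay above all control values for 5 of the 9 members and below them for 3, where 29.1% and 36.9% of all tested genes did so (66.0% in either direction). All log2 fold changes here are differences of log2(FPKM + 1), a scale that compresses the changes of genes with few reads.

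To show the sequence next to receptor genes that were higher, the 250 bases before the annotated start of Egfr, Erbb4 and Fgfr2 are printed from RefSeq (build GRCm38.p6, which differs from the mm39 coordinates of the expression tables). Capitals mark matches, on either strand, to any of 6 promoter motifs: the GC box GGGCGG, the TATA box TATAAA, the CCAAT box with those letters, the AP-1 site TGANTCA, the ETS core CCGGAA and the E-box CACGTG. The windows are chr11:16751953-16752202 (plus strand) for Egfr, chr1:69108060-69108309 (minus strand) for Erbb4 and chr7:130266809-130267058 (minus strand) for Fgfr2, and none of the 3 holds an exon of GENCODE M21.
Egfr: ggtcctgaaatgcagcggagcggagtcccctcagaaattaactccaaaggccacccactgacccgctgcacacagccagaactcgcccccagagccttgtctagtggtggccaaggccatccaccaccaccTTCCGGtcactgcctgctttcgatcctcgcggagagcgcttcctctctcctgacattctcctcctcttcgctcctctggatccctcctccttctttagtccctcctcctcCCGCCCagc
Erbb4: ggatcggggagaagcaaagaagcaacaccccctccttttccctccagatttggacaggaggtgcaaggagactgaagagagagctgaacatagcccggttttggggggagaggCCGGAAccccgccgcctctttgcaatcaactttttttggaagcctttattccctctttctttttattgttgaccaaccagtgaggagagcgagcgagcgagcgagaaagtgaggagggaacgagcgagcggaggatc
Fgfr2: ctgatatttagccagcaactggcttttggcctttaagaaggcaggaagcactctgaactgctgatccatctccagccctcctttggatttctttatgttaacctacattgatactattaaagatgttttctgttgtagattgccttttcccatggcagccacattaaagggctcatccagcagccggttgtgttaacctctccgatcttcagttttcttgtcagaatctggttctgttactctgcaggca

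The Egfr window held a GC box whose first base lies 9 bases before the start and an ETS core 119 bases before it. In the Erbb4 window the single match was an ETS core 137 bases before the start. No match to any of the 6 motifs lay in the Fgfr2 window, which is inside the long annotated Fgfr2 gene and had 44.0% G and C, against a median of 52.4% over all 32851 windows. GC boxes occur in 32.7% of those windows and ETS cores in 12%. The other shares were 12.4% for the TATA box, 33.8% for the CCAAT box, 6.75% for the AP-1 site and 6.02% for the E-box. Of the 10 genes 7 had an entry, with 9 windows. Both Fgfr3 windows held GC boxes (3 and 2), as did that of Lrig1 (2) and 1 of the 2 Errfi1 windows (3). The Erbb2 window held no GC box, as was the case for Erbb4 and Fgfr2. A CCAAT box lay in the windows of Erbb2 and Lrig1, in 1 Fgfr3 window and in that Errfi1 window, which also held a TATA box. Both Fgfr3 windows, that Errfi1 window and those of Lrig1 and Erbb2 hold exon bases of GENCODE M21, unlike the printed ones. Erbb3, Fgfr1 and Hbegf had no entry. No overlap between motif letters occurs in the printed windows. These matches describe letters and were not tested for use by any factor.

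Setd4, the gene carried by the virus, was at 0.952 to 1.53 FPKM in control and 296 to 346 FPKM in SETD4 OE libraries, and libraries held 14924273 to 18078717 reads. Of 8 markers of neural stem cells and radial glia, among them Nes, Sox2 and Fabp7, all were tested, 5 were higher and 3 lower, and their sum was 2401 to 2611 FPKM in the controls and 1997 to 2077 in SETD4 OE. Markers of other cell types also differed. The 8 astrocyte markers summed to 396 to 430 FPKM in the controls and 838 to 851 in SETD4 OE, with 6 of 7 tested higher. Of the 8 oligodendrocyte precursor markers 6 were higher and 2 lower, and the sum, most of it Olig1 and Olig2, which were the lower ones, was 1155 to 1292 FPKM in the controls and 729 to 786 in SETD4 OE. All 5 tested oligodendrocyte markers (sums 42.2 to 45.4 and 82.7 to 89.9 FPKM) and 5 of 6 tested ependymal markers (21.6 to 26.1 and 53.1 to 69.7) were higher. Neuronal and neuroblast markers summed to 38.8 to 43.7 and 42.6 to 49.6 FPKM, with 2 higher and 2 lower of 5 tested. Microglial markers summed to 6.81 to 10.3 and 5.41 to 6.79 FPKM and endothelial markers to 4.06 to 4.32 and 1.26 to 1.67, with 1 tested gene each (Cd68 and Flt1), both lower, and the endothelial gene Cldn5 was at 0 in all libraries. Of 3 tested mural and fibroblast markers 2 were higher (Col1a1 and Rgs5) and 1 lower (Acta2). The sum over that list, most of it Acta2 in both groups, was 31.5 to 36.3 and 19.3 to 22.6 FPKM. Col1a1, Rgs5, Mag, Tmem212, Pifo and Gad1 passed the expression minimum through their SETD4 OE values, and Gad2 and Flt1 through their control values. The counts of higher and lower markers follow in part from that filter. Among all tested genes 26.0% were higher and 33.9% lower. The part of these markers in the receptor values was not tested, and in bulk RNA a changed number of cells of a type and a changed level per cell cannot be told apart. Mitochondrially encoded genes held 3.78% of reads in control replicate 1, 2.45% in each other control and 3.52 to 3.73% in SETD4 OE; without control replicate 1 the members called were 5 higher and 2 lower, Errfi1 having lost its call.

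The ERBB receptor genes differed in their response. Egfr (ENSMUSG00000020122; mm39 chromosome 11, 16702203 to 16868158, plus strand) was at 20.05, 17.7 and 19.2 FPKM in control replicates 1 to 3 and at 36.1, 39.4 and 33.7 FPKM in SETD4 OE replicates 1 to 3. Every SETD4 OE library was above every control library, by 1.92-fold on the group means (19.0 ± 1.19 and 36.4 ± 2.87 FPKM, SD, n = 3 each). On the log2 scale the change was 0.90 (SE 0.08; limma, adjusted p = 6.55e-05), and each library held 3466 to 6939 Egfr reads. Egfr moved from the percentile 76.2 of all tested genes by control level to 89.9 by SETD4 OE level.

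Erbb4 (chromosome 1, 68071345 to 69147218, minus strand) was scarce in the controls, at 0.717, 0.474 and 0.458 FPKM, and reached 2.77, 2.74 and 2.57 FPKM in SETD4 OE. The groups were far apart relative to their spread, with means of 0.550 ± 0.146 and 2.69 ± 0.111 FPKM, a 4.90-fold difference. These values rest on 90 to 142 reads in the controls and 527 to 540 in SETD4 OE. Its log2 fold change of 1.26 (SE 0.10, adjusted p = 5.44e-05, limma) was the highest of the tested members and was 2.13 with a pseudocount of 0.1 and 2.41 with limma-voom on reads. Erbb4 passed the expression minimum through its SETD4 OE values.

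Erbb2 (chromosome 11, 98303296 to 98328542, plus strand), the preferred dimer partner of the other ERBB receptors, was at 5.43, 6.50 and 6.44 FPKM in the controls and at 5.65, 5.77 and 5.81 FPKM in SETD4 OE. The SETD4 OE values lay within the range of the controls. The 95% interval of its log2 fold change ran from -0.25 to 0.10 around -0.08 (adjusted p = 0.407, limma), so changes of the size seen for Egfr lay outside it; with upper-quartile scaling the value was 0.05 and with mitochondrial and the 10 most abundant genes removed 0.0039. Erbb3 (chromosome 10, 128403392 to 128425521, minus strand), the receptor of neuregulins that signals through its partners, was near the limit of detection in both groups. It was at 0.0934, 0.113 and 0.167 FPKM in the controls (9, 12 and 16 reads) and at 0.242, 0.225 and 0.200 FPKM in SETD4 OE (23, 21 and 20 reads). The SETD4 OE values were above the control values, but Erbb3 was under the expression minimum, and without that filter its log2 fold change of 0.12 did not pass (adjusted p = 0.105, limma).

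**Figure D1:**
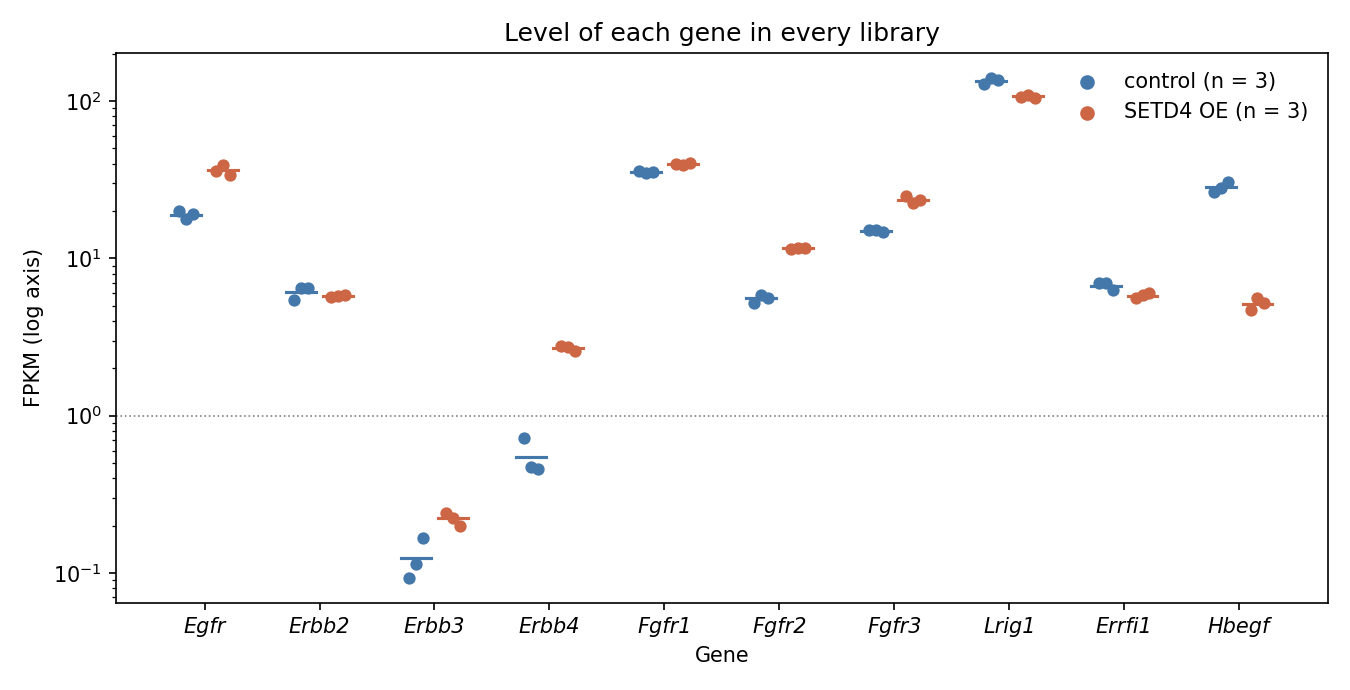
FPKM of the 10 genes in each of the 6 libraries on a log axis, with control in blue and SETD4 OE in orange; short lines are group means and the dotted line is 1 FPKM. Egfr, Erbb4, Fgfr2 and Fgfr3 are higher in every SETD4 OE library, Hbegf is lower in every one, and Erbb2 overlaps between groups.

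All 3 FGF receptor genes rose, and the intervals of the log2 fold change of Fgfr2 (0.80 to 1.07) and Fgfr3 (0.49 to 0.76) lay above that of Fgfr1 (0.05 to 0.27). Fgfr1 (chromosome 8, 26003670 to 26065734, plus strand) was the most abundant of the 3, at 35.96, 35.1 and 35.3 FPKM in the controls while SETD4 OE libraries had 39.5, 39.5 and 40.4 FPKM. The groups did not overlap, but the difference was small, 1.12-fold, with a log2 fold change of 0.16 (SE 0.05, adjusted p = 0.0203, limma). Fgfr1 no longer passed when 1 of 4 libraries was left out: for controls 2 and 3 the adjusted p became 0.0562 and 0.0757, and for SETD4 OE libraries 1 and 3 it became 0.0559 and 0.0684. Its adjusted p ran from 0.00114 to 0.0865 over all alternatives of the limma fit.

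Fgfr2 (chromosome 7, minus strand), a receptor of several FGFs including FGF1 and FGF2, was at 5.23, 5.84 and 5.62 FPKM in the controls and at 11.5, 11.7 and 11.6 FPKM in SETD4 OE. This was 2.08-fold on the means, with SETD4 OE libraries nearly identical (11.6 ± 0.0883 FPKM) and a log2 fold change of 0.94 (SE 0.06, adjusted p = 1.54e-05, limma). The deposited entry for Fgfr2 runs from 129764181 to 132725079, or 2960899 bases, and 18 tested genes lie over that span. In the GENCODE M21 annotation of GRCm38, whose summed exon length equals the deposited gene length for all 10 genes, 3.04% of the Fgfr2 exon bases are shared with an exon of Ctbp2.

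Fgfr3 (chromosome 5, 33879018 to 33894412, plus strand), which is expressed in astroglia, was at 15.1, 15.1 and 14.7 FPKM in the controls and at 25.0, 22.3 and 23.5 FPKM in SETD4 OE. All SETD4 OE libraries were higher, by 1.58-fold on the means, with a log2 fold change of 0.62 (SE 0.06, adjusted p = 0.000102, limma). Of its exon bases 13.9% overlap G630022F23Rik on the opposite strand, which had a mean of 0.542 FPKM, and the sources used here do not say whether reads were counted by strand. Fgfr3 was not in the astrocyte marker list, of which 6 of 7 tested genes were higher and Aldh1l1 was not called.

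**Figure D2:**
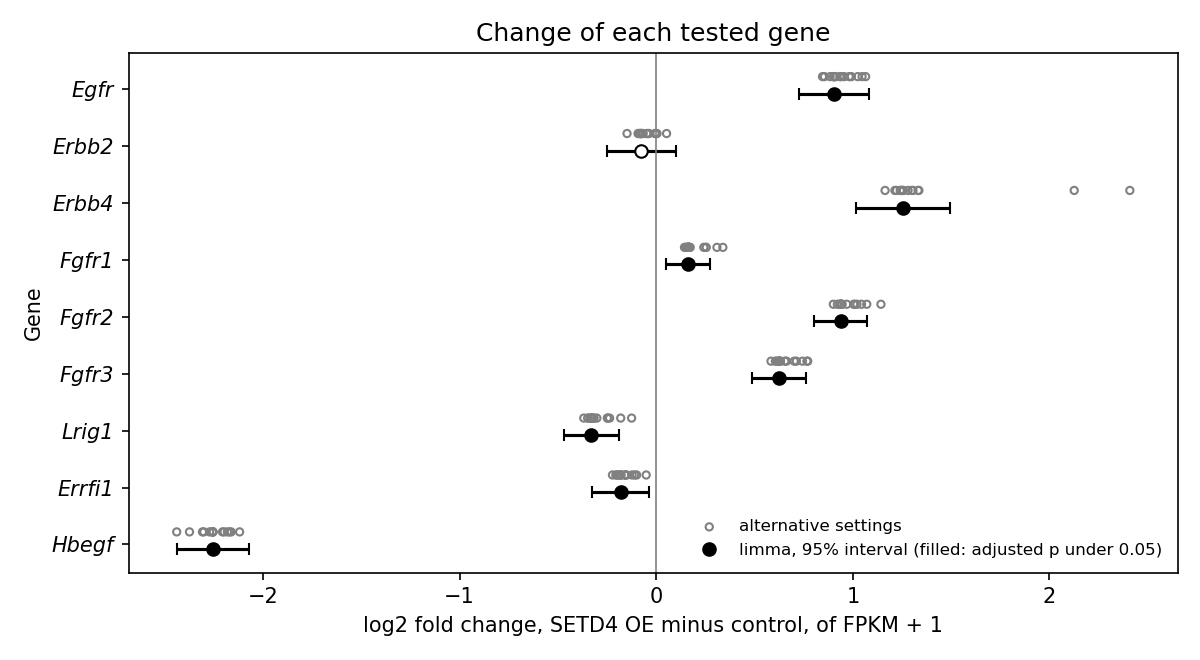
Log2 fold change (SETD4 OE minus control, of FPKM + 1) of the 9 tested genes with its 95% interval from limma, filled where adjusted p was under 0.05; open grey circles are the values under the alternative settings. Erbb4, Fgfr2, Egfr and Fgfr3 lie right of 0 and Hbegf left of it under every setting shown, whereas Erbb2 falls on both sides.

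The inhibitor genes fell slightly. Lrig1 (chromosome 6, 94581510 to 94677139, minus strand) was the most abundant member in both groups, at 128, 140.2 and 137 FPKM in the controls while SETD4 OE libraries had 107, 109.7 and 105 FPKM. The groups did not overlap, and the control level was 1.26-fold higher (means 135 ± 6.47 and 107 ± 2.26), with a log2 fold change of -0.33 (SE 0.06; limma, adjusted p = 0.00253). With quantile normalization the log2 fold change was -0.13 and the call was lost (adjusted p = 0.0764). Errfi1 (chromosome 4, 150938376 to 150953349, plus strand) was at 6.94, 6.93 and 6.27 FPKM in the controls and at 5.59, 5.84 and 5.98 FPKM in SETD4 OE. The groups did not overlap, but the lowest control and the highest SETD4 OE value lay close together, and the log2 fold change of -0.18 (SE 0.06, adjusted p = 0.0386, limma) lost its call under 12 of 16 alternatives, with adjusted p from 0.0291 to 0.542. Among them was leaving out any 1 library other than control replicate 3, with adjusted p from 0.0616 to 0.120.

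Hbegf (chromosome 18, 36637980 to 36648858, minus strand), which encodes a membrane-anchored ligand of EGFR and ERBB4 that is released by cleavage, had the largest change of the tested members on the log2(FPKM + 1) scale; with limma-voom on reads the log2 fold change was -2.37, against 2.41 for Erbb4. It was at 26.5, 28.2 and 30.4 FPKM in the controls and at 4.68, 5.62 and 5.17 FPKM in SETD4 OE. The lowest control value was far above the highest SETD4 OE value, and the means (28.4 ± 1.94 and 5.15 ± 0.470 FPKM) differed 5.50-fold. On the log2 scale the change was -2.25 (SE 0.08; limma, adjusted p = 2.4e-06) and lay between -2.44 and -2.12 over the alternatives. In rank among tested genes Hbegf went from the percentile 84.5 to 39.6.

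In the controls, the order of levels was Lrig1, Fgfr1, Hbegf, Egfr, Fgfr3, Errfi1, Erbb2, Fgfr2, Erbb4 and Erbb3, and neighbours were separated in all 3 libraries except Errfi1 from Erbb2 and Erbb2 from Fgfr2. In SETD4 OE, Egfr stood next after Lrig1 and Fgfr1, Fgfr2 had passed Errfi1 and Erbb2, and Hbegf stood below these 3, with Errfi1 and Erbb2 again overlapping. FPKM is per length, so levels of different genes can be set side by side.

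Shares within a library do not depend on how libraries are scaled, and they were not tested. Egfr made up 73.6 ± 2.47% of the summed FPKM of the 4 ERBB genes in the controls and 80.8 ± 1.07% in SETD4 OE, without overlap between the groups. Erbb2 went from 23.8 ± 2.86% to 12.8 ± 0.887% and Erbb4 from 2.13 ± 0.529% to 5.98 ± 0.252%, also without overlap, and Erbb3 was under 1% in every library. The summed ERBB level was 25.8 ± 0.871 FPKM in control and 45.1 ± 2.95 FPKM in SETD4 OE libraries. Counted as reads, without division by length, the Egfr share was 84.5% and 86.4%, a smaller difference of 1.97 percentage points in place of 7.15.

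Among the 3 FGF receptor members Fgfr1 remained the majority, with 63.3 ± 0.615% in the controls and 53.1 ± 0.955% in SETD4 OE. The Fgfr2 share was 9.95 ± 0.596% and 15.4 ± 0.390%, and that of Fgfr3 was 26.7 ± 0.283% and 31.5 ± 1.29%. None of these 3 shares overlapped between groups. Summed over the 3 genes, the level was 56.0 ± 0.345 FPKM in control and 75.0 ± 1.32 FPKM in SETD4 OE libraries.

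**Figure D3:**
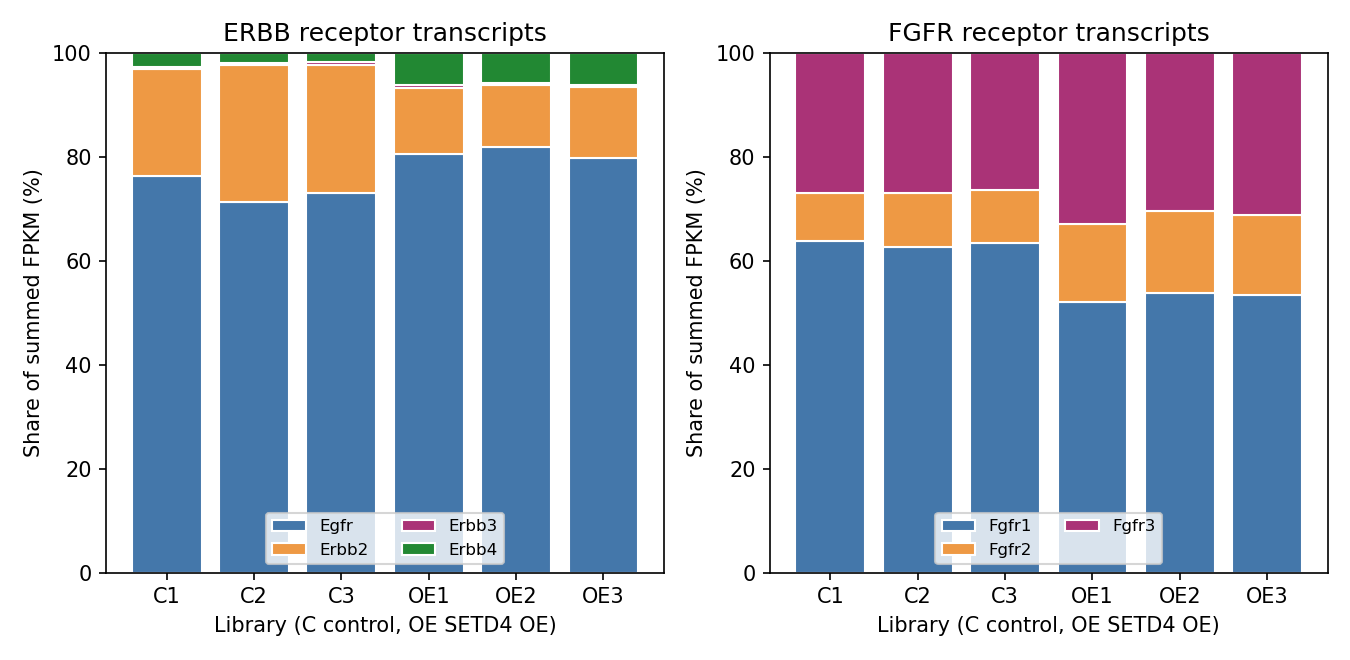
Share of each gene in the summed FPKM of the ERBB receptor genes (left) and FGF receptor genes (right), in percent, for each control (C1 to C3) and SETD4 OE (OE1 to OE3) library. The Erbb2 and Fgfr1 parts are smaller, and the Erbb4, Fgfr2 and Fgfr3 parts larger, in all 3 SETD4 OE libraries.

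Ratios between members were also apart between the groups. For Lrig1, Hbegf and Errfi1 over Egfr this follows from the levels above, since Egfr rose and the other genes fell. The controls held 6.38, 7.92 and 7.13 units of Lrig1 for each unit of Egfr, and SETD4 OE held 2.95, 2.78 and 3.12. The ratio of Hbegf to Egfr was 1.498 ± 0.153 in the controls and 0.142 ± 0.0119 in SETD4 OE, so that the ligand transcript was above the receptor transcript in every control library and below it in every SETD4 OE library. Errfi1 stood at 0.355 ± 0.0339 of Egfr in the controls and 0.1601 ± 0.0154 in SETD4 OE. The ratio of Fgfr3 to Fgfr1 was 0.422 ± 0.00694 and 0.593 ± 0.0351, and that of Fgfr3 to Fgfr2 was 2.69 ± 0.174 and 2.04 ± 0.132. These ratios are given as description and were not tested.

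**Figure D4:**
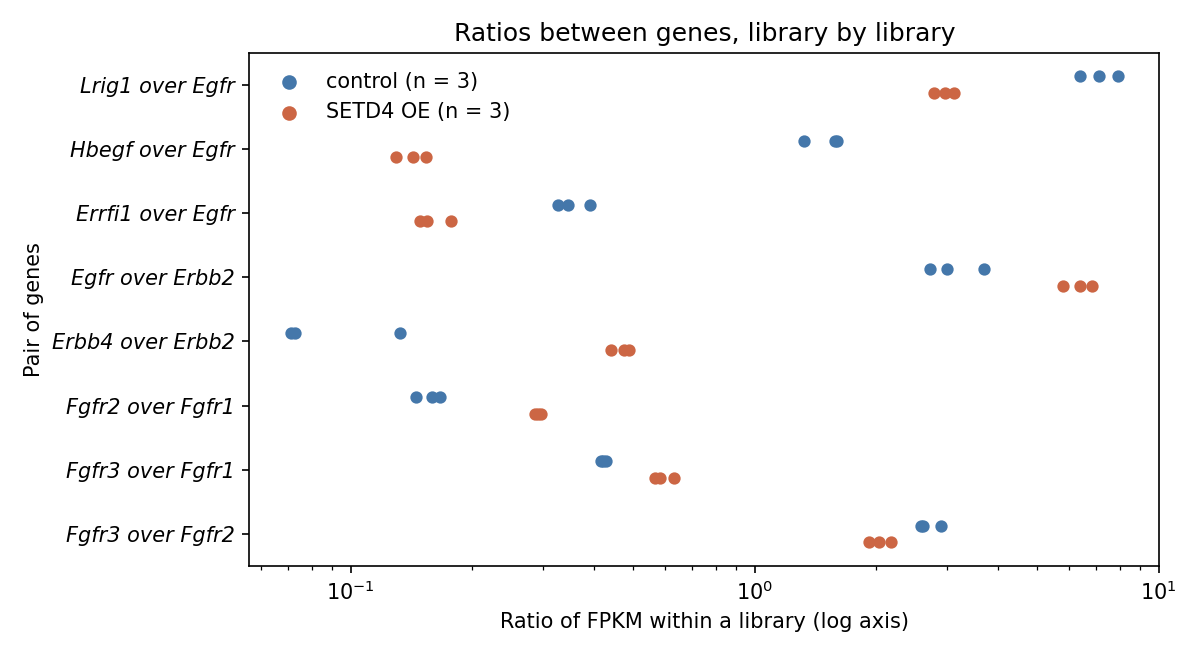
Ratio of the FPKM of gene pairs within each library on a log axis, with control in blue and SETD4 OE in orange. For all 8 pairs shown the 3 control and the 3 SETD4 OE values do not overlap, and the ratio of Hbegf to Egfr is the one that crosses 1.

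Most other EGF family ligand genes and genes for their release were under the expression minimum or not called. Of 14 genes of this list 6 were tested, 1 was higher and 2 were lower, with a median log2 fold change of -0.03 against -0.06 over all tested genes. For this list and those below, the shares over all tested genes are 26.0% higher and 33.9% lower. Every gene said here and below to have risen or fallen passed the limma threshold, with its groups apart. Rhbdf1, a regulator of ligand shedding, fell from 11.6 ± 0.211 to 5.77 ± 0.0930 FPKM (log2 fold change -0.89). Adam10, a membrane protease, fell from 47.4 ± 0.808 to 35.5 ± 2.41 FPKM (-0.41). Nrg1, a neuregulin that binds ERBB3 and ERBB4, rose from 1.14 ± 0.0365 to 1.53 ± 0.0474 FPKM (0.25, limma adjusted p = 0.0380), and no longer passed on leaving out any 1 library. The name Nrg1 stands on a second, short entry as well, which was listed at 0 in all libraries and is not used. Tgfa, picked after its values were seen, was the EGFR ligand next in level to Hbegf and was at 4.74 ± 0.205 and 4.44 ± 0.219 FPKM without a call. Areg and Rhbdf2, also picked so, were under the expression minimum and not tested. The EGFR ligand gene Areg was at 1.025 ± 0.502 and 0.187 ± 0.0516 FPKM, with all SETD4 OE values below the controls. For Rhbdf2 all SETD4 OE values lay above the controls. Without the filter 3 genes of the list were called lower and 0 higher.

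Of 18 FGF ligand genes 3 were tested, of which 1 rose and 1 fell. Fgf3 held 2, 1 and 2 reads in the controls and 83, 63 and 78 reads in SETD4 OE, or 0.0441 ± 0.0170 and 2.01 ± 0.259 FPKM. Fgf3 passed the expression minimum through its SETD4 OE values, so its count as a gene that rose follows in part from that filter. Its log2 fold change of 1.52 (adjusted p = 3.81e-05, limma) is no measure of its size, since the controls were near 0, and ran from 1.35 to 5.29 over the alternatives. Fgf2 fell from 2.06 ± 0.345 to 1.31 ± 0.0681 FPKM (log2 fold change -0.40, adjusted p = 0.0142, limma), and 13.2% of its exon bases are shared with other genes, among them Nudt6 on the opposite strand. Fgf1 was the most abundant FGF ligand gene, at 7.16 ± 0.221 and 7.63 ± 0.583 FPKM, and was not called; it was picked after its values were seen.

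Of 19 listed coreceptors and other FGF binding proteins 13 were tested, with 3 higher and 4 lower (median -0.07). These shares are close to those of all tested genes (26.0% higher and 33.9% lower). The heparan sulfate proteoglycan gene Gpc2 rose from 0.983 ± 0.126 to 3.64 ± 0.200 FPKM (log2 fold change 1.23). Its control mean was under the expression minimum, which it passed through its SETD4 OE values, and 55.6% of its exon bases are shared with a predicted gene that was at 0. Sdc1, another such proteoglycan gene, fell from 11.95 ± 1.34 to 5.56 ± 0.558 FPKM, and Gpc6 from 3.85 ± 0.0470 to 2.64 ± 0.368 FPKM (-0.98 and -0.42). Fgfrl1, an FGF receptor without a kinase domain, fell from 50.5 ± 1.88 to 36.3 ± 3.39 FPKM (-0.47). The number of higher genes in this list was 1 without control replicate 2, control replicate 3 or SETD4 OE replicate 3.

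In the list of other inhibitors of these receptors and their signalling more genes fell than rose, and most that fell were Sprouty or related Spred genes. Of 17 listed genes 16 were found by name and 14 tested, of which 10 fell and 3 rose, with a median of -0.54. Those that rose were Lrig2, Cblb and Il17rd, picked after their values were seen (log2 fold changes 0.36, 0.48 and 0.815). The Sprouty and Spred genes that fell were Spry1, Spry2, Spry4, Spred1, Spred2 and Spred3. Outside that family Cbl, Socs5, Ptprj and Rnf41 fell and Socs4 was not called. This split was also made after the values were seen. Spry1, a Sprouty inhibitor of receptor signalling to ERK, was at 34.8, 36.1 and 36.2 FPKM in the controls, where SETD4 OE had 3.14, 3.59 and 3.24 FPKM. Its log2 fold change of -3.09 (SE 0.06; limma, adjusted p = 4.18e-07) exceeded that of Hbegf in size. Spry4 fell from 29.0 ± 2.09 to 3.78 ± 0.322 FPKM, the related Spred3 from 16.3 ± 0.0191 to 5.00 ± 0.256 FPKM, and Ptprj, a receptor phosphatase, from 11.98 ± 0.339 to 4.02 ± 0.248 FPKM. The log2 fold changes of Spry1 and Spry4 (-3.09 and -2.65) were larger in size than those of Lrig1 and Errfi1 (-0.33 and -0.18). Of the Spry1 exon bases 24.4% overlap a gene on the opposite strand with a mean of 0.109 FPKM.

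Genes that ERK signalling is known to induce were lower in 13 of 15 cases and higher in 1, with a median of -1.23. The ERK phosphatase gene Dusp6 fell from 71.9 ± 2.19 to 11.6 ± 0.376 FPKM, a log2 fold change of -2.53 (SE 0.05; limma, adjusted p = 4.93e-07), and its relative Dusp4 from 40.2 ± 4.51 to 6.96 ± 0.705 FPKM. Plaur, the urokinase receptor gene, fell from 3.85 ± 0.854 to 0.374 ± 0.0981 FPKM and passed the expression minimum through its control values. Epha2, picked after its values were seen, also passed through its control values (3.63 and 0.625 FPKM). The count of lower genes in this list follows in part from that filter. The member that rose was the immediate early gene Fos, from 12.2 ± 0.864 to 40.9 ± 1.66 FPKM. The 5 receptor genes that were called rose in the same libraries in which these 13 genes fell, and receptor protein and kinase activity were not measured.

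All 20 adaptors and kinases between receptor and ERK were tested, 4 rose and 7 fell, with a median of -0.03. These shares are close to those of all tested genes (26.0% higher and 33.9% lower). The number of lower genes was 4 without control replicate 1, 2 without control replicate 3 and 3 without SETD4 OE replicate 1 or 3. Gab1, a docking protein of EGFR and FGFR signalling, rose from 15.6 ± 0.761 to 32.0 ± 2.17 FPKM. The FGF receptor adaptor gene Frs2 rose from 7.20 ± 0.534 to 10.2 ± 0.770 FPKM and Plcg1, a phospholipase that both receptor families bind, from 15.1 ± 1.25 to 21.3 ± 0.986 FPKM. Hras fell from 26.1 ± 3.16 to 13.7 ± 0.816 FPKM.

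**Figure D5:**
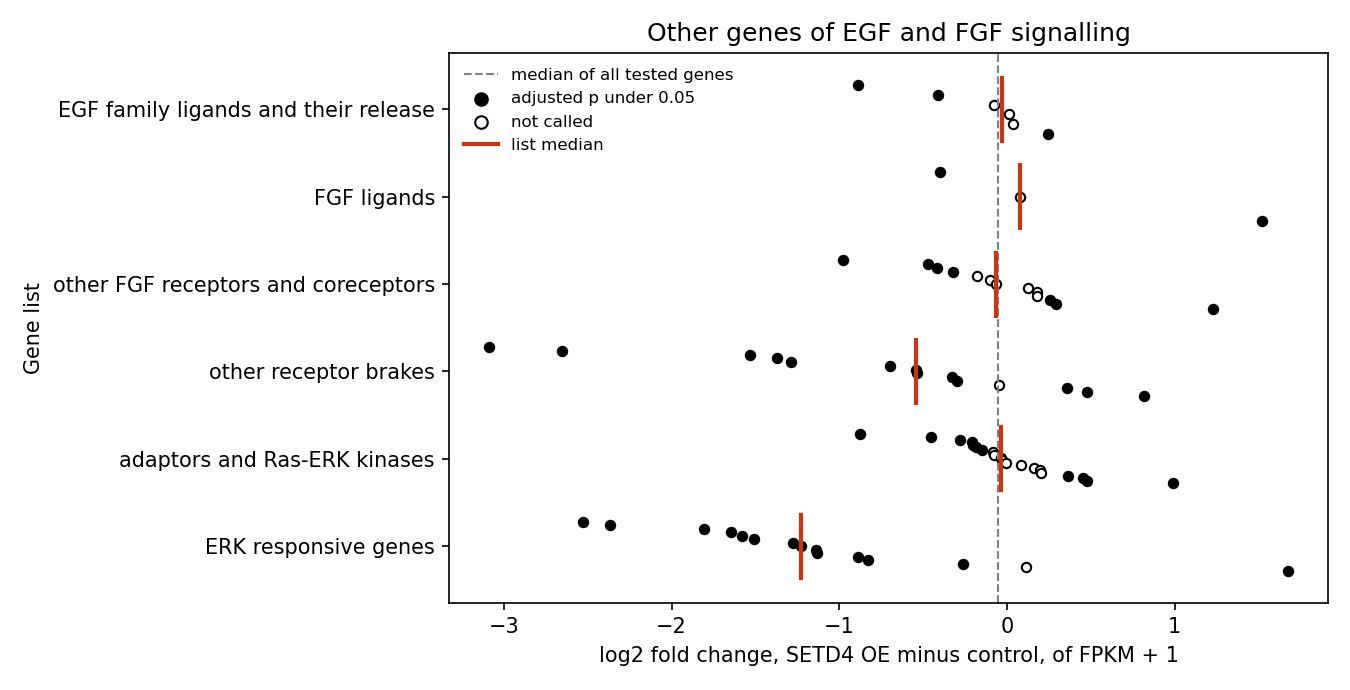
Log2 fold change (SETD4 OE minus control, of FPKM + 1) of the tested genes of 6 lists, filled where adjusted p was under 0.05; red bars are list medians and the dashed line is the median of all tested genes (-0.06). The lists of receptor brakes and of ERK responsive genes lie mostly left of that line, and the other 4 medians lie near it.

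Genes whose levels followed a member most closely were sought by Pearson correlation of log2(FPKM + 1) over the 6 libraries, among protein-coding genes averaging 5 FPKM or more. For Erbb4 they included Cyp2j6 (r = 0.999) and Ehbp1 (0.999), and for Hbegf they were Prep, Ppm1f and Ints3 (each 1.00 after rounding). The 6 points share the difference between the 2 groups, and 13.01% of 7470 genes had r above 0.95 with Erbb4 and 23.3% of 7469 with Hbegf.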

How the data were processed

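RNA sequencing libraries of 6 samples, 3 control and 3 SETD4 OE, were grouped by their labels. The authors deposited FPKM per gene, not counts, in 1 table per group. Alignment was to mm39 with HISAT2 2.0.5, per the submitters' processing notes, and the counting tool and strand setting are not given in the sources used here. FPKM times gene length gave whole reads for 100% of values (tolerance 0.05 reads), which recovers depth. Libraries held 14924273 to 18078717 reads, a median of 534 per tested gene, and the median SE of a log2 fold change was 0.0841. The main test was limma on log2(FPKM + 1) with a mean-variance trend (limma 3.58.1, two-sided), run on the 12994 of 55802 genes that averaged 1 FPKM or more, and p-values were adjusted over all of them by Benjamini-Hochberg. The authors' scaling was kept. It did not divide by total reads. Total reads differed from the library size implied by the FPKM by 0.634, 2.75 and 0.639% in control replicates 1 to 3. In SETD4 OE replicates 1 to 3 the difference was -5.04, -3.97 and -3.69%. Scaling all libraries to equal sums moved the median log2 fold change of all genes by 0.068. With equal sums Errfi1 was at -0.11 and lost its call (adjusted p = 0.154, limma). Replicates differed by more than sampling noise (chi-square per degree of freedom 3.89 to 16.3 within groups and 92.8 to 121 between them).

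The members and the lists were chosen with earlier results of these data known, so list counts are descriptions. Besides the 10 members, the genes named from each pathway list are the up to 4 called ones with the largest absolute log2 fold change, and others are named as picked after their values were seen. Promoter windows came from RefSeq (GRCm38.p6) and exon overlaps from GENCODE M21. The fit was tested on simulated reads, with the spread between replicates set by an assumed dispersion of 0.003. It recovered 69 of 96 changes of 1.5-fold and 93 of 95 changes of 3-fold, and called 8 unchanged genes. Few genes were changed in the simulation, and its libraries were scaled by total reads. In the data 60.0% of tested genes were called and the scaling was another, so the number of false calls does not carry over. Smaller changes, such as those of Fgfr1, Errfi1 and Lrig1, were not simulated. Alternatives covered the pseudocount, the filter on low values, 5 other scalings, limma-voom on the recovered reads, a replicate block and leaving out each library. A gene whose pattern was among the most like that of Erbb4 is not reported here.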

Additional observations from a re-analysis of the deposited data

How the results depend on the processing

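Egfr, Erbb4, Fgfr2, Fgfr3 and Hbegf kept their direction and their call in every alternative that gave a value; a minimum mean of 5 FPKM removed Erbb4. Fgfr1 lost its call in 5 of 16 alternatives, Lrig1 in 1 and Errfi1 in 12, and Erbb2, never called, changed sign with upper-quartile scaling (0.053) and without mitochondrial and the 10 most abundant genes (0.0039). Members called lower numbered 1 with quantile normalization, 2 to 3 on leaving out 1 library, and members called higher 4 to 5. Over all genes a minimum of 5 FPKM left 1881 higher genes. Shares from reads not divided by length differed between groups by 1.97 percentage points for Egfr, -6.29 for Erbb2 and 6.37 for Fgfr2, against 7.15, -11.0 and 5.49 from FPKM.

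List counts moved with the setting. EGF ligand genes called higher were 0 without a filter, with a minimum of 5 FPKM, with quantile normalization and on leaving out any 1 library (0 to 0), and 2 with upper-quartile scaling. FGF ligand genes called higher were 2 without a filter or with upper-quartile scaling and 0 with a minimum of 5 FPKM, and those called lower were 0 with the last 2 settings. Coreceptors called higher were 0 with a minimum of 5 FPKM, 5 with upper-quartile scaling, without mitochondrial and the 10 most abundant genes or with limma-voom, and 1 to 2 on leaving out 1 library. Receptor brakes called higher were 0 with a minimum of 5 FPKM. Adaptors and kinases called lower were 4 without a filter, 3 with equal sums or limma-voom, 2 with upper-quartile scaling, quantile normalization or without mitochondrial and the 10 most abundant genes, and 2 to 6 on leaving out 1 library; those called higher were 7 with upper-quartile scaling or limma-voom. ERK responsive genes called higher were 2 with equal sums, upper-quartile scaling, quantile normalization, limma-voom and without mitochondrial and the 10 most abundant genes. The cause of these differences was not tested.

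Deviations of same-numbered libraries from their group means had correlations of -0.0661, -0.229 and 0.0768, and 1 of 6 libraries correlated best with its own number. The labels do not say what the numbers stand for. With 3 libraries behind each group mean, these correlations cannot decide whether the numbers pair the samples. With a replicate block 2993 genes were higher and 3948 lower, EGF ligand genes called higher were 0, coreceptors called higher 1 and adaptors called lower 3, and Fgfr1 (adjusted p = 0.0865, limma) and Errfi1 (0.101) lost their calls. The block changed no other call of a member. Depth limits Erbb3 (9 to 23 reads) and Fgf3 in the controls (1 to 2 reads).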
